A study of Mus musculus with 12 samples.

Results

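The proteasome genes were taken as the protein-coding genes whose mouse symbol begins with Psma, Psmb, Psmc, Psmd, Psme, Psmf or Psmg followed by a digit, with pseudogenes left out. This took 50 of the 55416 gene identifiers in the tables. They were 8 alpha-ring and 8 beta-ring genes of the 20S core, 3 immunoproteasome subunits, 6 ATPases and 11 other subunits of the 19S cap, 3 chaperones of 19S assembly, 6 activators or inhibitors, 4 chaperones of 20S assembly, and Psmc3ip. Psmc3ip shares the letters but encodes a recombination protein that binds Psmc3, so counts over all members are also given without it.

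RNA had been sequenced from the gastrocnemius, a calf muscle, and from the hypothalamus of 6 male BALB/c mice labelled as 7 weeks old. In the cachectic group, 3 mice carried a tumor grown from CT-26, a colon carcinoma line of mouse origin placed under the abdominal skin. The normal group, 3 mice, had no tumor. Per the labels, the tumor-bearing mice weighed 7 to 10% less by day 10 and were killed on day 25, and the collection day of the normal mice is not given in the sources used here. This gave 4 groups of 3 libraries, CT-26 gastrocnemius, normal gastrocnemius, CT-26 hypothalamus and normal hypothalamus, with each mouse giving 1 library per tissue. The subcutaneous tumor is a single transplanted line, and no group of tumor-bearing mice without weight loss was among the samples.

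The 26S proteasome degrades proteins that carry ubiquitin chains. Its 20S core is a barrel of 2 outer alpha rings and 2 inner beta rings, and the beta subunits Psmb5, Psmb6 and Psmb7 hold the cutting sites. The 19S cap binds the ubiquitin chain, removes it, unfolds the protein with a ring of ATPases and feeds it into the core. In immune cells and in cells exposed to interferon, Psmb8, Psmb9 and Psmb10 take the places of Psmb5, Psmb6 and Psmb7, which gives the immunoproteasome. In skeletal muscle the ubiquitin and proteasome pathway is a known route of protein loss in wasting states. Transcription of subunit genes is known to be raised by Nfe2l1, also called Nrf1, through antioxidant response elements, and that of immunoproteasome genes by interferon-regulated factors.

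Promoter stretches of 4 members are printed because they belong to the genes on which the comparisons below turn. Psmd4 and Psma7 had the highest fold changes of the cap and of the core in muscle, Psmb5 is a constitutive catalytic subunit, and Psmb8 is its immunoproteasome counterpart. The sequences are from RefSeq on GRCm38.p6, 5′ to 3′ on the strand of the gene. They come from chr3:95042615-95042714, minus strand, for Psmd4, from chr2:180042465-180042564, minus strand, for Psma7, from chr14:54617996-54618095, minus strand, for Psmb5, and from chr17:34198095-34198124, plus strand, for Psmb8. The Psmb8 stretch, cut to 30 bases, lies before a RefSeq transcript start but inside the annotated gene, at chr17:34197721-34201454. The Psmb5 stretch lies partly inside its annotated gene, at chr14:54614119-54618022. Capitals mark the motifs searched on both strands. ATTGG is the reverse complement of CCAAT. TTTCCATTTC is the reverse complement of an interferon-stimulated element core, which reads GAAA, any 2 bases, GAAA. TGACGTCGC matches the antioxidant response element core TGACNNNGC, and TTCCCAGAA the gamma-activated site core TTCNNNGAA.
Psmd4: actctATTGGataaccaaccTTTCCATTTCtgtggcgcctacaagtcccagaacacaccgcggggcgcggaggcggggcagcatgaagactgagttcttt
Psma7: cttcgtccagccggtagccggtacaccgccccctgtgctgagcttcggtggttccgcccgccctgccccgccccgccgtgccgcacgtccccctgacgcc
Psmb5: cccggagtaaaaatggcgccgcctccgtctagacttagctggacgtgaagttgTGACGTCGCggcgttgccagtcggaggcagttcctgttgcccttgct
Psmb8: ctgTTCCCAGAAgatgcccccccccgtccc

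Of the 50 genes, 42 had a RefSeq promoter window running from 250 bases before to 50 bases after a RefSeq transcript start. For some genes, among them Psmb8, Psmb9, Psmd9 and Psme1, the window lies wholly inside the annotated gene. The antioxidant response element core was in the windows of 6 of these 42 genes (14.3%), namely Psmb5, Psmb6, Psmc6, Psmd12, Psmd9 and Psme4, against 14.84% of 17491 protein-coding genes. The interferon-stimulated element core was in 5 of 42 (11.9%), namely Psmb3, Psmd4, Psmd9, Psme1 and Psmg4, against 3.94% of all protein-coding genes. The gamma-activated site core was in 3 of 42 (7.1%), namely Psmb8, Psmd2 and Psmg1, against 8.92%. CCAAT was in 15 of 42 (35.7%), among them 5 of 7 alpha-ring genes, against 42.31%. The windows of Psmb9 and of Tap1, a peptide transporter gene, overlapped by 275 bases on opposite strands. These are matches of letters in short windows and carry no test.

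In the gastrocnemius, most genes of the 26S particle rose in CT-26 mice, while the immunoproteasome subunits and the assembly chaperones did not pass the test. All 17 of the 17 cap genes and 11 of 14 tested core genes were higher in CT-26 muscle, with median log2 fold changes of 0.98 for the cap and 0.63 for the core. Outside core and cap, Psmf1 was higher, Psme1 was lower, and the other 15 tested genes were not called. In the hypothalamus of the same mice a single gene, Psma7, was called, and core and cap together had a median log2 fold change of 0.04.

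Counts rest on a quasi-likelihood test in edgeR over all genes, in each tissue on its own, with a gene called at a Benjamini-Hochberg adjusted p below 0.05. Among the 50 genes, 48 had enough reads to be tested in each tissue. The 2 that did not were Psma8, a testis form of an alpha subunit, and Psmb11, a thymus form of a beta subunit, and both were at or near 0 in all 12 libraries. In the gastrocnemius 29 of the 48 were higher and 1 was lower, where 19.6% of all 14265 genes tested were called higher and 18.3% lower. Without Psmc3ip these counts were 29 and 1 of 47. In the hypothalamus 1 of 48 was higher and 0 were lower, where 3.94% of 17961 genes were called higher and 4.83% lower. Without Psmc3ip they were 1 and 0 of 47. Without adjustment, 7 of the 48 had a higher and 1 a lower value at edgeR p below 0.05, where 11.7% of all genes were higher and 13.4% lower at that threshold, and DESeq2 gave the same counts of calls as edgeR, 1 and 0. In either direction, 38.0% of all genes tested were called in the gastrocnemius and 8.77% in the hypothalamus. Levels of 1 gene between groups are given as CPM, which are counts divided by a library size scaled with TMM. Levels of different genes are compared as TPM, which also divides by transcript length. In muscle CPM, all 3 CT-26 libraries lay above all 3 normal ones for 30 of 48 members and below for 2, against 26.3% and 25.3% of all genes. In muscle TPM it was 37 above and 1 below, against 40.9% and 10.4% of all genes. In the hypothalamus it was 10 above and 2 below in CPM, against 14.7% and 15.6% of all genes, and 4 above and 2 below in TPM, against 10.5% and 15.6%. Without Psmc3ip, 29 and 2 of 47 were above and below in muscle CPM, 36 and 1 in muscle TPM, 10 and 1 in hypothalamus CPM, and 4 and 1 in hypothalamus TPM.

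Psmc3ip read 1.525, 1.897 and 1.883 CPM in CT-26 muscle against 1.461, 0.8796 and 1.457 CPM in normal muscle. Its groups did not overlap, and the log2 fold change of 0.47 ± 0.27 was not called (edgeR adjusted p = 0.1929).

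**Figure D1:**
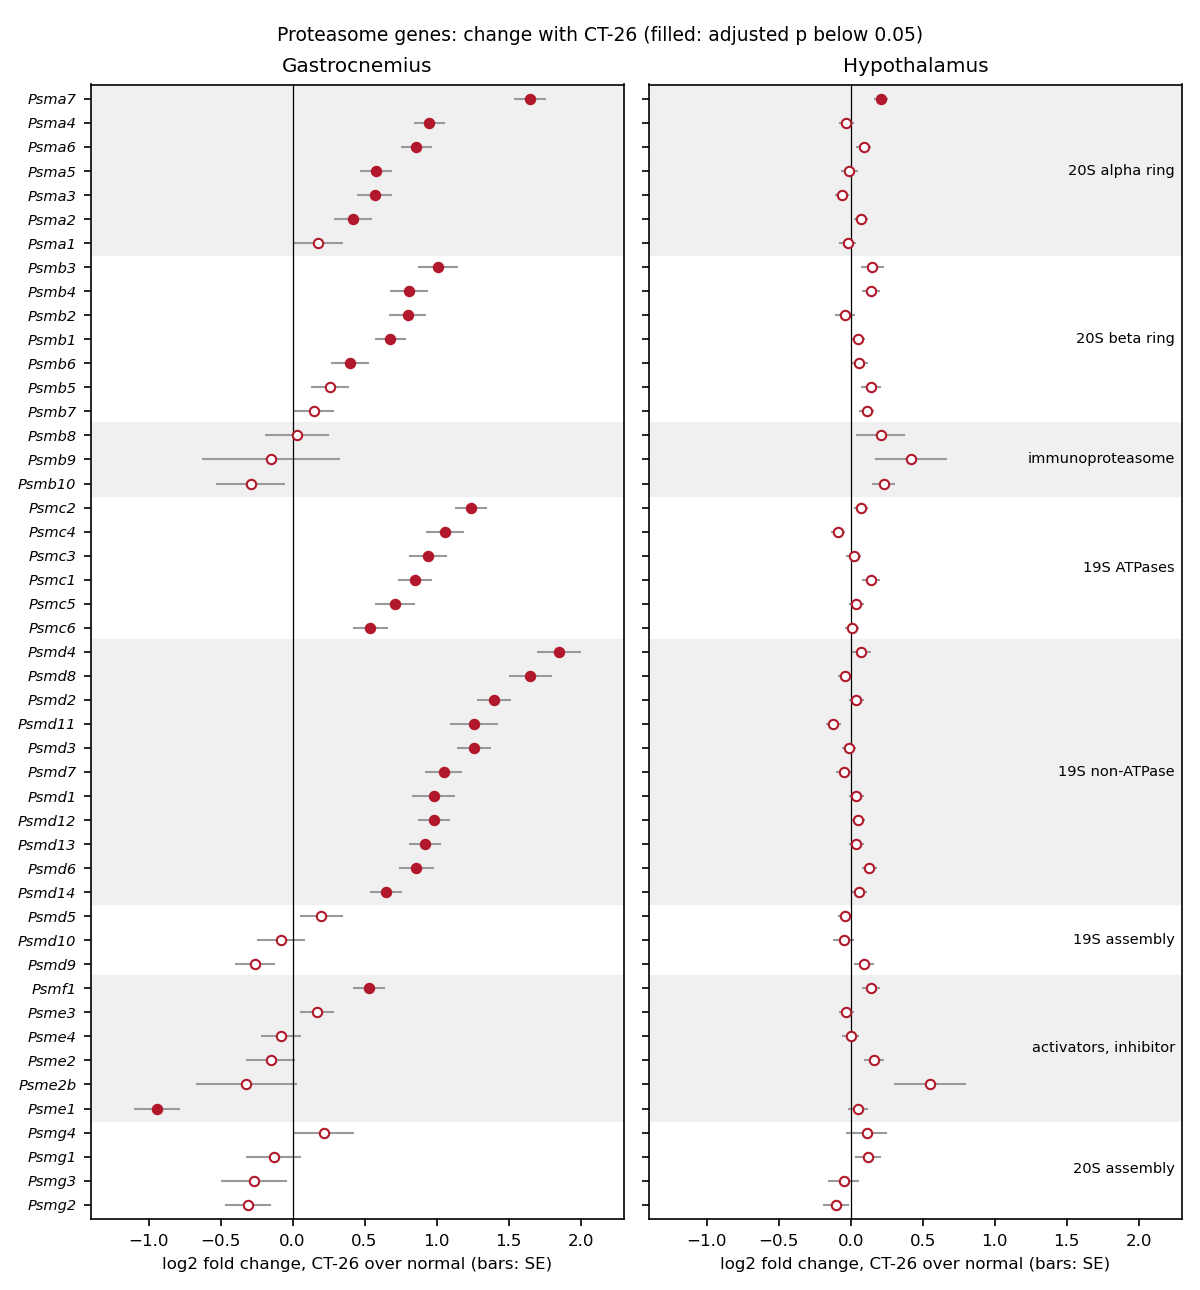
Log2 fold change of each tested proteasome gene, CT-26 over normal, in gastrocnemius and hypothalamus, by class; bars are standard errors, 3 libraries per group, and filled points passed an adjusted p of 0.05. In muscle the cap genes lie between 0.54 and 1.85 and the core genes between 0.15 and 1.65, while in the hypothalamus core and cap genes lie between -0.12 and 0.21.

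The muscle libraries held 26015741 to 42771331 expected counts each, and the hypothalamus libraries 27195316 to 52535761. The tissue labels held: muscle fibre markers summed to 61940 to 93580 TPM in CT-26 gastrocnemius and 74980 to 108800 TPM in normal gastrocnemius, and hypothalamic neuron markers to 5555 to 6354 TPM in CT-26 hypothalamus and 3948 to 5074 TPM in normal hypothalamus. In the gastrocnemius 3 of 6 fibre markers fell. All 5 neutrophil markers were higher there, with a sum of 71.06 to 531.7 TPM in CT-26 mice against 0.77 to 1.21 TPM in normal mice, as were 2 of 3 general leukocyte markers (sum 5.52 to 13.25 TPM in CT-26 and 4.01 to 4.77 TPM in normal muscle) and 2 of 5 macrophage markers (sum 35.49 to 128.9 TPM in CT-26 and 29.8 to 38.23 TPM in normal muscle). Of 4 endothelial markers in muscle, 1 rose and 2 fell, and of 2 tested microglia markers 0 rose and 1 fell. These counts stand beside 19.6% higher and 18.3% lower among all genes tested in muscle. The lymphocyte list summed to at most 0.35 TPM in either muscle group, and Cd3d was at 0 in all normal libraries. In the hypothalamus 4 of 5 neutrophil markers were higher, against 3.94% of all genes. Their sums were 25.47 to 276.1 TPM in CT-26 mice against 2.54 to 3.81 TPM in normal mice. Of 8 neuron markers there, 2 were higher and 1 was lower, and of 4 endothelial markers 1 was higher and 1 lower. A single gene was higher among 5 macrophage markers and among 4 tumor epithelium markers. Among all genes tested in hypothalamus, 4.83% were lower. The part of these cells in the results was not tested, and in bulk tissue a change in cell numbers and a change in RNA per cell cannot be told apart.

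The alpha ring forms the gate of the barrel, and 6 of its 7 tested genes rose in CT-26 muscle, with a median log2 fold change of 0.58. Psma7 read 148.6, 150.4 and 157.4 CPM in the CT-26 muscles, against 50.28, 46.44 and 48.40 CPM in the normal muscles. The values of each group lay close together and all CT-26 libraries above all normal ones, at a log2 fold change of 1.65 ± 0.11 (SE, n = 3 per group) and a 3.14-fold level (edgeR adjusted p = 0.000109). Psma4, at 138.9, 142.1 and 148.5 CPM in CT-26 muscle against 75.40, 71.80 and 75.73 CPM in normal muscle, had a log2 fold change of 0.95. Psma6 (0.86), Psma5 (0.58) and Psma3 (0.57) also rose without overlap between the groups. Over all genes tested in muscle, 19.6% were called higher and 26.3% had all CT-26 CPM above all normal ones. Psma1 had the lowest fold change of the ring, with 46.51, 34.85 and 49.94 CPM in CT-26 muscle against 35.49, 35.11 and 45.24 CPM in normal muscle. These groups overlapped, and the log2 fold change of 0.18 ± 0.17 was not called (edgeR adjusted p = 0.4285). Psma2 was called at a log2 fold change of 0.42 (edgeR adjusted p = 0.03253), but that call was lost without any 1 of CT-26 libraries 2 or 3 or normal libraries 1, 2 or 3.

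In the beta ring all 4 structural subunits and 1 of 3 catalytic subunits were called higher in muscle, against 19.6% of all genes tested. Psmb1, Psmb2, Psmb3 and Psmb4, which hold no cutting site, rose, with log2 fold changes of 0.68, 0.80, 1.01 and 0.81. Psmb3 had the highest fold change of them, with 122.7, 155.8 and 155.9 CPM in CT-26 muscle against 66.31, 76.23 and 72.39 CPM in normal muscle. All 3 CT-26 values lay well above the normal ones, a 2.02-fold level (log2 1.01 ± 0.14, edgeR adjusted p = 0.00123).

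Of the constitutive catalytic subunits, Psmb5, the chymotrypsin-like one, read 37.12, 43.40 and 44.53 CPM in CT-26 muscle against 34.21, 31.89 and 38.35 CPM in normal muscle, with 1 CT-26 library inside the normal range. Its log2 fold change was 0.26 ± 0.13 (edgeR adjusted p = 0.1422). Psmb6, the caspase-like subunit, read 96.99, 124.7 and 118.6 CPM in CT-26 muscle against 80.66, 86.53 and 91.37 CPM in normal muscle. The groups did not overlap, and the gene was called at a log2 fold change of 0.40 ± 0.13 (edgeR adjusted p = 0.0476), a call lost without any 1 of the same 5 libraries as for Psma2. Psmb7, the trypsin-like subunit, read 149.6, 189.6 and 190.0 CPM in CT-26 muscle against 161.5, 156.9 and 159.0 CPM in normal muscle. CT-26 library 1 lay below and the other 2 above all normal libraries, and the log2 fold change of 0.15 ± 0.14 was not called (edgeR adjusted p = 0.417). Whether the catalytic and structural subunits differed from each other was not tested. With limma on log2(TPM + 0.5), Psma1, Psmb5 and Psmb7 were also called, at 0.54, 0.62 and 0.52. Of these, library totals with the edgeR test added Psmb5.

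All 6 ATPases of the cap, the motor that unfolds substrates, rose in CT-26 muscle, where 19.6% of all genes tested were called higher. Their median log2 fold change was 0.89. Psmc2 had the highest fold change, at 177.0, 181.7 and 187.2 CPM in CT-26 muscle against 75.55, 76.71 and 78.61 CPM in normal muscle. The libraries of each group lay close together and far from the other group, for a 2.36-fold level (log2 1.24 ± 0.11, edgeR adjusted p = 0.000291). Psmc6 had the lowest fold change, at 126.8, 132.0 and 125.8 CPM in CT-26 muscle against 90.08, 94.27 and 81.14 CPM in normal muscle. It too had no overlap (log2 0.54 ± 0.12, edgeR adjusted p = 0.00813). Psmc4, Psmc3, Psmc1 and Psmc5 lay between, at 1.06, 0.94, 0.85 and 0.71.

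All 11 other cap subunits rose as well, and no CT-26 library overlapped a normal one for any of them. Over all genes tested in muscle, 19.6% were called higher and 26.3% had every CT-26 CPM above every normal one. The 11 subunits had a median log2 fold change of 1.05. Psmd4, a receptor for ubiquitin chains, lies at chr3:95032694-95042614 on GRCm38 and had the highest fold change of all members. It read 428.2, 465.4 and 368.6 CPM in CT-26 muscle, against 109.9, 130.9 and 109.8 CPM in normal muscle. The lowest CT-26 value was far above the highest normal one, a 3.60-fold level (log2 1.85 ± 0.15, edgeR adjusted p = 0.000225). Psmd8, a subunit of the lid, read 415.0, 314.0 and 378.1 CPM in CT-26 muscle against 118.0, 127.8 and 106.2 CPM in normal muscle, likewise without overlap (log2 1.65 ± 0.15). Psmd2, a large scaffold of the base, had a log2 fold change of 1.40 and Psmd3 one of 1.26. Psmd11, the lid subunit that clamps cap to core, read 253.1, 172.2 and 232.3 CPM in CT-26 muscle against 80.99, 96.06 and 97.06 CPM in normal muscle. CT-26 library 2 was the lowest of its group but still above all normal libraries (log2 1.26 ± 0.17, edgeR adjusted p = 0.001174). Psmd14, the deubiquitinase that strips the chain, had the lowest fold change of this class, with 66.54, 61.41 and 64.91 CPM in CT-26 muscle against 43.45, 40.94 and 38.17 CPM in normal muscle (log2 0.65 ± 0.11, edgeR adjusted p = 0.002978).

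**Figure D2:**
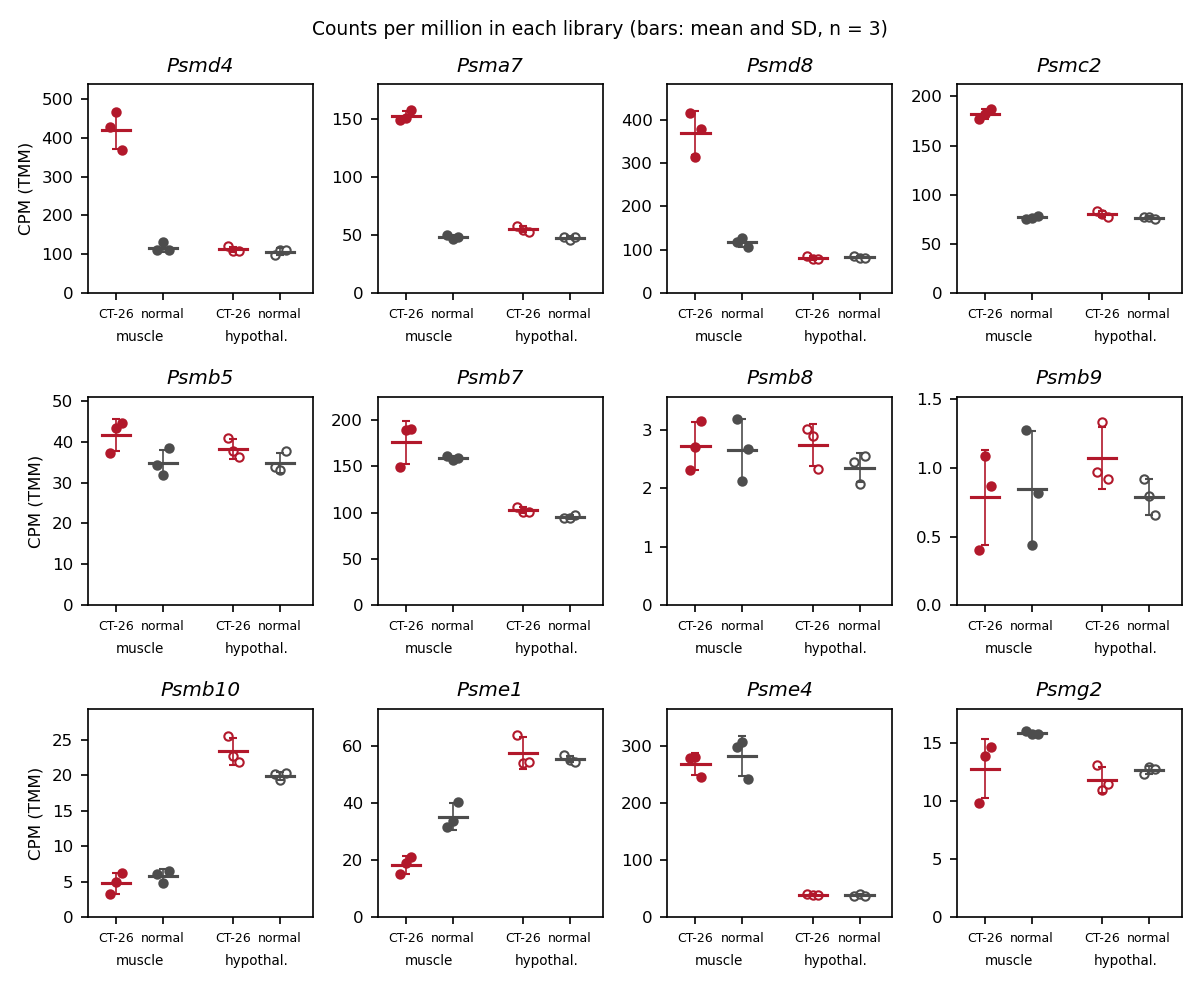
TMM-scaled CPM in each library for 12 members, in muscle (filled) and hypothalamus (open); bars show mean and SD of 3 libraries. The CT-26 muscle points stand above the normal ones for Psmd4, Psma7, Psmd8 and Psmc2, overlap them for Psmb5, Psmb8, Psmb9, Psmb10 and Psme4, and lie below them for Psme1.

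Of the 3 immunoproteasome subunits, 0 were called in either direction in muscle, by edgeR, by DESeq2 or at an unadjusted edgeR p below 0.05, which 24.9% of all genes passed as higher and 23.6% as lower. Psmb10 read 3.304, 4.917 and 6.246 CPM in CT-26 muscle against 6.171, 4.875 and 6.575 CPM in normal muscle (log2 -0.29 ± 0.24, edgeR adjusted p = 0.3762). Psmb8 read 2.308, 2.710 and 3.138 CPM in CT-26 muscle against 3.177, 2.126 and 2.665 CPM in normal muscle (log2 0.03 ± 0.22, edgeR adjusted p = 0.9269). For both genes the groups overlapped. Psmb9 read 0.4024, 1.084 and 0.8667 CPM in CT-26 muscle against 1.278, 0.4398 and 0.8174 CPM in normal muscle. Its standard error of 0.48 around a log2 fold change of -0.15 leaves changes of moderate size undetectable in these libraries (edgeR adjusted p = 0.8254). Summed TPM of the 3 genes was 14.05, 17.43 and 20.79 in CT-26 muscle against 18.56, 12.63 and 14.29 in normal muscle, which overlapped.

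A ratio inside each library does not depend on scaling between libraries. The summed TPM of Psmb8, Psmb9 and Psmb10 was 2.676, 3.244 and 3.905% of that of Psmb5, Psmb6 and Psmb7 in CT-26 muscle, against 5.108, 3.644 and 4.555% in normal muscle. The ranges overlapped, and the mean log2 ratio differed by -0.44 (two-sided exact permutation p = 0.2, where 0.1 is the smallest that 3 against 3 can give). In the hypothalamus the same ratio was 16.95, 15.92 and 15.91% in CT-26 mice against 14.87, 15.25 and 14.01% in normal mice. There every CT-26 value lay above every normal value, a log2 difference of 0.15 (two-sided exact permutation p = 0.1). Psmb10 made up most of that sum, with 45.45 to 54.73 TPM in CT-26 hypothalamus, where Psmb8 had 2.26 to 3.78 TPM and Psmb9 0.88 to 1.71 TPM. Psmb10 over Psmb7 separated the groups (log2 difference 0.14, two-sided exact permutation p = 0.1), while Psmb9 over Psmb6 (0.30, p = 0.4) and Psmb8 over Psmb5 (0.00, p = 1.0) overlapped. The mean of the 3 pairwise log2 ratios differed by 0.15 with a two-sided exact permutation p of 0.5. In muscle, Psmb8 over Psmb5 was 4.094, 4.527 and 4.675% in CT-26 mice against 6.704, 4.734 and 5.169% in normal mice. Every CT-26 value of this pair lay below every normal value (log2 difference -0.31, two-sided exact permutation p = 0.1). Psmb9 over Psmb6 (-0.77, two-sided exact permutation p = 0.3) and Psmb10 over Psmb7 (-0.33, two-sided exact permutation p = 0.2) overlapped there.

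The chaperones that build the particle were not called in muscle: 0 of the 4 for the 20S core and 0 of the 3 for the 19S base passed, by edgeR, by DESeq2 or at an unadjusted edgeR p below 0.05. Among all genes tested in muscle, 24.9% were higher and 23.6% lower at that unadjusted threshold. Of the core chaperones, which pair up to assemble the alpha ring, Psmg1 read 4.977, 5.885 and 6.605 CPM in CT-26 muscle against 6.098, 5.204 and 7.712 CPM in normal muscle (log2 -0.13 ± 0.19, edgeR adjusted p = 0.6292). Psmg2, its partner, read 9.890, 13.90 and 14.70 CPM in CT-26 muscle against 16.03, 15.83 and 15.81 CPM in normal muscle (log2 -0.31 ± 0.16, edgeR adjusted p = 0.1595). The CT-26 values of Psmg2 all lay below the normal ones, as did those of 25.3% of all genes tested in muscle, and in TPM they overlapped. Psmg3 read 2.139, 2.594 and 3.706 CPM in CT-26 muscle against 3.469, 3.079 and 3.625 CPM in normal muscle (log2 -0.27 ± 0.23, edgeR adjusted p = 0.3843). Psmg4 read 4.532, 4.801 and 7.173 CPM in CT-26 muscle against 4.929, 4.178 and 5.011 CPM in normal muscle (log2 0.22 ± 0.21, edgeR adjusted p = 0.4282). For both of these the groups overlapped. With limma on log2(TPM + 0.5), Psmg4 was called, at 0.61.

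Psmd5, Psmd9 and Psmd10 carry cap-subunit symbols but help the ATPase ring assemble and leave the finished particle. Psmd5 read 21.01, 15.80 and 20.77 CPM in CT-26 muscle against 16.69, 18.36 and 15.18 CPM in normal muscle (log2 0.20 ± 0.15, edgeR adjusted p = 0.3156). Psmd9 read 8.640, 9.254 and 8.189 CPM in CT-26 muscle against 10.85, 11.29 and 8.991 CPM in normal muscle (log2 -0.26 ± 0.14, edgeR adjusted p = 0.178). Psmd10 read 5.379, 4.453 and 6.216 CPM in CT-26 muscle against 6.061, 5.241 and 5.686 CPM in normal muscle (log2 -0.08 ± 0.17, edgeR adjusted p = 0.7346). In all 3 the groups overlapped.

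Among the activators and the inhibitor, 1 gene fell, 1 rose and 4 were not called in muscle. Psme1 and Psme2 encode the alternating subunits of the PA28 ring, an interferon-inducible activator that opens the core without ubiquitin. Psme1 read 15.12, 18.89 and 21.10 CPM in CT-26 muscle against 31.51, 33.72 and 40.41 CPM in normal muscle. Every CT-26 value was below every normal value, and the level fell by 0.94 ± 0.16 on the log2 scale, 1.92-fold lower (edgeR adjusted p = 0.002996). With library totals in place of TMM the log2 fold change was -0.74, and with limma on log2(TPM + 0.5) it was -0.60, both still called. Psme2, its partner, read 10.53, 11.42 and 16.23 CPM in CT-26 muscle against 13.55, 14.44 and 14.29 CPM in normal muscle, which overlapped (log2 -0.15 ± 0.17, edgeR adjusted p = 0.5309). Psme2b, a copy of Psme2 with which it may share reads, read 0.3177, 0.5033 and 0.6276 CPM in CT-26 muscle against 0.6208, 0.5131 and 0.6397 CPM in normal muscle (log2 -0.32 ± 0.35, edgeR adjusted p = 0.5001). These too overlapped.

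Psme3 forms a nuclear activator ring, and read 63.70, 69.34 and 60.04 CPM in CT-26 muscle against 53.24, 56.88 and 61.84 CPM in normal muscle (log2 0.17 ± 0.12, edgeR adjusted p = 0.2955). With library totals it was called, at 0.37. Psme4, the PA200 activator, read 278.7, 280.7 and 246.6 CPM in CT-26 muscle against 298.6, 307.4 and 243.0 CPM in normal muscle, which overlapped (log2 -0.08 ± 0.14, edgeR adjusted p = 0.7035). Psmf1, which inhibits the core in the test tube, read 22.19, 21.33 and 20.08 CPM in CT-26 muscle against 14.64, 14.70 and 14.57 CPM in normal muscle. The normal libraries were nearly equal and all lay below the CT-26 ones (log2 0.53 ± 0.11, edgeR adjusted p = 0.005804).

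Per transcript length, the 14 tested core genes spanned 37.2 TPM (Psma2) to 314.5 TPM (Psmb3) in CT-26 muscle and 20.2 TPM (Psma2) to 153.8 TPM (Psmb7) in normal muscle. The 17 cap genes spanned 62.9 TPM (Psmd14) to 457.1 TPM (Psmd4) in CT-26 muscle and 29.9 TPM (Psmd14) to 124.2 TPM (Psmc3) in normal muscle. The highest gene was thus 7.27 times the lowest within the cap in CT-26 muscle, against 4.15 times in normal muscle. In normal muscle Psmc3 averaged 124.2 ± 15.1 TPM (SD, n = 3), Psmd4 98.0 ± 15.7 TPM and Psmd8 93.4 ± 15.6 TPM. Psmc3 lay above both others in each library, at 125.9, 138.4 and 108.3 TPM. Psmd4 read 98.87, 113.2 and 81.84 TPM and Psmd8 100.8, 103.9 and 75.43 TPM, so their order changed between libraries. The assembly chaperones had group means from 4.30 to 21.4 TPM in muscle. The highest was Psmg4 in CT-26 muscle, at 21.4 TPM beside 37.2 TPM for Psma2, and Psmg2 in normal muscle, at 17.3 TPM beside 20.2 TPM for Psma2. Psme4 averaged 52.0 ± 8.67 TPM in CT-26 muscle and 42.8 ± 8.67 TPM in normal muscle, against 7.62 ± 0.55 TPM in CT-26 hypothalamus and 7.42 ± 0.58 TPM in normal hypothalamus. Psmb10 averaged 13.1 ± 3.01 TPM in CT-26 muscle and 11.4 ± 1.87 TPM in normal muscle, against 49.7 ± 4.69 TPM in CT-26 hypothalamus and 41.9 ± 1.13 TPM in normal hypothalamus. Levels in the 2 tissues were not compared by a test.

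**Figure D3:**
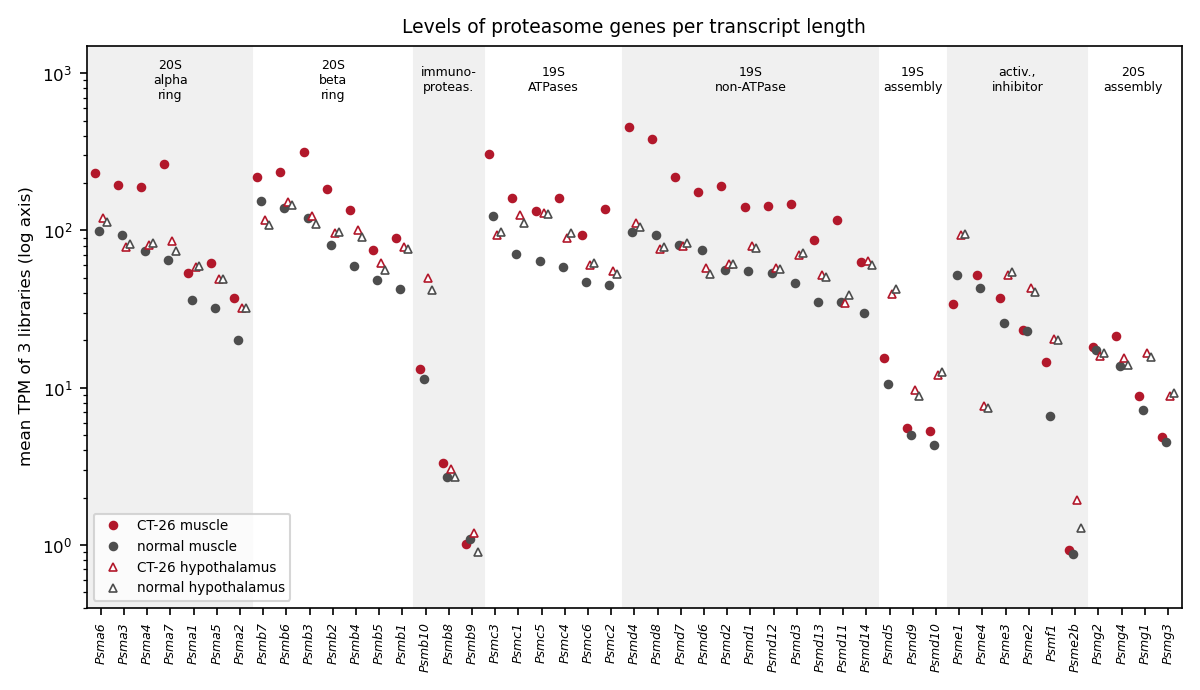
Mean TPM of 3 libraries for each tested member, on a log axis, in CT-26 and normal muscle (circles) and CT-26 and normal hypothalamus (triangles), grouped by class. Psmd4 reaches 457.1 TPM in CT-26 muscle, while the assembly chaperones and Psmb8 to Psmb10 lie below 50 TPM in all 4 groups.

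Summed over class, the core held 2447, 2173 and 2241 TPM in the CT-26 muscles against 1133, 1094 and 966.2 TPM in the normal muscles, and the cap 3616, 2973 and 2749 TPM in the CT-26 muscles against 1121, 1162 and 922.9 TPM in the normal muscles. All 49 proteasome genes together took 0.5253 to 0.6336% of TPM in CT-26 muscle and 0.2095 to 0.2496% in normal muscle. In the hypothalamus, core and cap together held 2625, 2588 and 2391 TPM in CT-26 mice against 2429, 2444 and 2520 TPM in normal mice, so the groups overlapped.

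The following ratios between classes were chosen after the class values had been seen. The cap-to-core ratio of summed TPM was 1.478, 1.368 and 1.227 in CT-26 muscle against 0.9894, 1.063 and 0.9552 in normal muscle, all CT-26 values above. Psme1 and Psme2 made up 2.192, 2.421 and 2.937% of the core sum in CT-26 muscle against 6.369, 7.427 and 7.327% in normal muscle, all CT-26 values below. The 4 Psmg chaperones stood at 2.039, 2.222 and 2.735% of the core in CT-26 muscle against 4.210, 3.750 and 4.072% in normal muscle. Psmd5, Psmd9 and Psmd10 stood at 0.8532, 0.7182 and 0.9774% of the cap in CT-26 muscle against 1.867, 1.816 and 1.901% in normal muscle. Psme4 stood at 2.502, 2.344 and 1.963% of the core in CT-26 muscle against 4.284, 4.293 and 3.395% in normal muscle. Each of these 5 ratios separated the muscle groups fully (two-sided exact permutation p = 0.1 for each, the smallest possible). As the class values were already known, these p-values add no support to them. In TPM the Psmg sum averaged 53.15 in CT-26 and 42.69 in normal muscle, and the sum of Psmd5, Psmd9 and Psmd10 26.36 and 19.86. Psme4 averaged 52.0 and 42.8 TPM, so in TPM these 3 numerators were not lower themselves. Under TMM the median log2 fold change was -0.20 for the Psmg genes and -0.08 for Psmd5, Psmd9 and Psmd10. Psme4 was at -0.08 under TMM, and none of these genes was called. Psme1 was lower in TPM too, at 33.95 against 51.75. In the hypothalamus the groups overlapped in all 5 ratios, with log2 differences from -0.08 to -0.03.

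**Figure D4:**
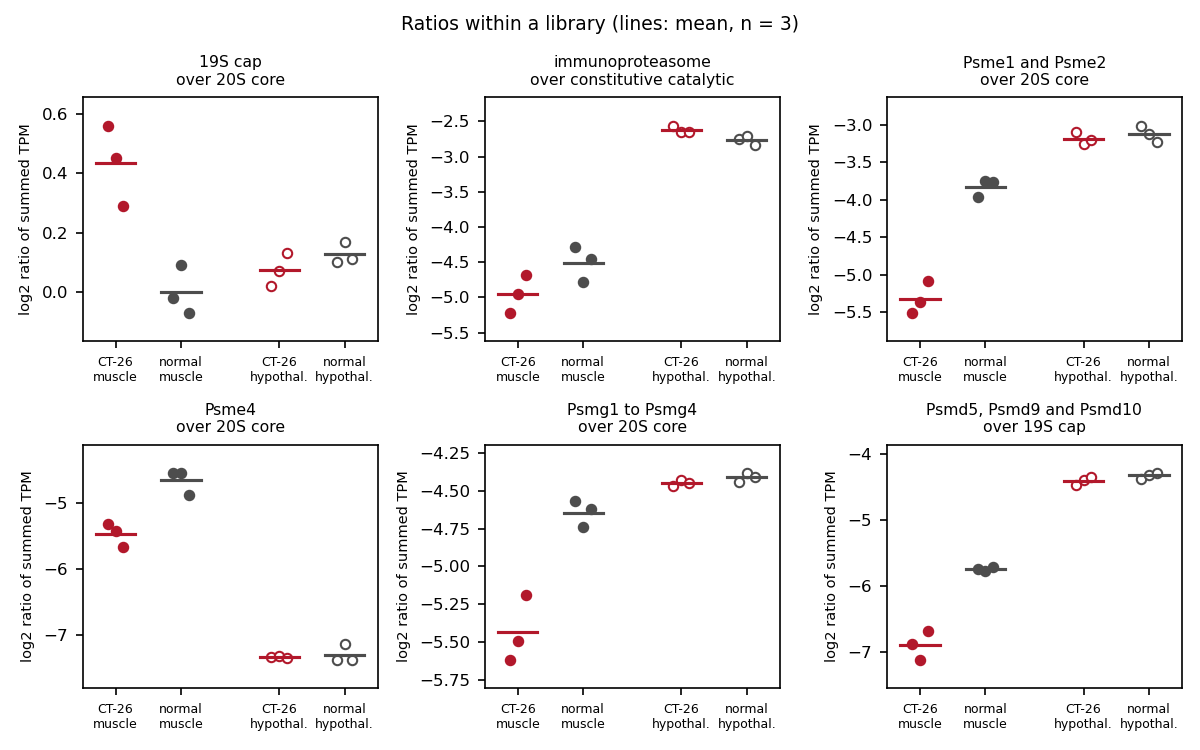
Ratios of summed TPM inside each library, on a log2 scale, for CT-26 and normal muscle and hypothalamus; each point is 1 library. The cap-to-core ratio is higher in all 3 CT-26 muscles (log2 difference 0.43), and the ratios of Psme1 and Psme2, of the chaperones and of Psme4 to the particle are lower.

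Whether the uncalled classes lay above or below 0 in muscle depended on scaling. TMM put the median log2 fold change of all 14265 genes at 0, library totals put it at 0.20, and log2(TPM + 0.5) put it at 0.28. The split of calls moved with it: 2801 genes were higher and 2616 lower with TMM, 3957 and 1662 with library totals, and 4473 and 1018 with limma on log2(TPM + 0.5). In the hypothalamus 708 were higher and 867 lower with TMM, 882 and 647 with library totals, and 245 and 275 with limma on log2(TPM + 0.5). The median of the core chaperones was -0.20, 0.01 and 0.18 under these 3 scalings, that of the cap chaperones -0.08, 0.13 and 0.26, that of the activators and inhibitor -0.11, 0.09 and 0.16, and that of the immunoproteasome subunits -0.15, 0.03 and 0.19. None of these medians was above that of all genes under the same scaling. The medians of the cap ATPases (0.89, 1.09 and 1.24) and of the other cap subunits (1.05, 1.25 and 1.42) were well above it under each.

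**Figure D5:**
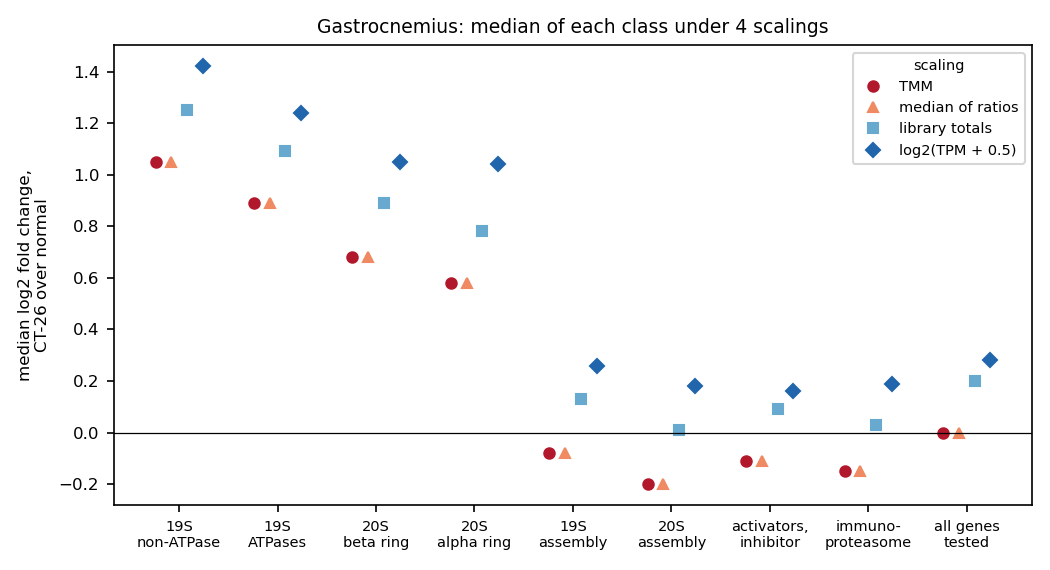
Median log2 fold change, CT-26 over normal gastrocnemius, of each class and of all genes tested, under TMM, median-of-ratios, library-total and log2(TPM + 0.5) scaling. Chaperones, activators and immunoproteasome subunits lie at or below the median of all genes under each scaling and change sign between scalings, while core and cap classes stay at 0.58 or above.

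In the hypothalamus the 31 tested core and cap genes had log2 fold changes between -0.12 and 0.21. Psma7 was the gene called, with 57.54, 54.64 and 52.50 CPM in CT-26 hypothalamus against 48.16, 46.03 and 48.43 CPM in normal hypothalamus. The groups did not overlap, at a log2 fold change of 0.21 ± 0.05 (edgeR adjusted p = 0.04237). The call was lost without any 1 of the 6 libraries (edgeR adjusted p 0.0543 to 0.1396) and with limma on log2(TPM + 0.5). Psma7 had the highest fold change of the core in each tissue, at 3.14-fold in muscle and 1.15-fold in hypothalamus. The lowest log2 fold change of an alpha subunit there was that of Psma3, at 73.68, 77.42 and 74.45 CPM in CT-26 mice against 80.52, 75.76 and 78.24 CPM in normal mice (log2 -0.06 ± 0.05, edgeR adjusted p = 0.5049).

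Of 7 beta subunits, 0 were called in the hypothalamus by edgeR or DESeq2. At an unadjusted edgeR p below 0.05, which 11.7% of all genes passed as higher and 13.4% as lower, 2 were higher. Psmb3 had the highest log2 fold change, with 72.11, 57.38 and 57.44 CPM in CT-26 mice against 53.21, 57.62 and 57.44 CPM in normal mice, a value set by 1 CT-26 library (log2 0.15 ± 0.08, edgeR adjusted p = 0.3065). Psmb2 had the lowest log2 fold change, at 61.23, 51.03 and 54.71 CPM in CT-26 mice against 61.61, 55.49 and 54.02 CPM in normal mice (log2 -0.04 ± 0.07, edgeR adjusted p = 0.807). Of the catalytic subunits, Psmb5 read 40.97, 37.81 and 36.15 CPM in CT-26 mice against 33.76, 33.06 and 37.72 CPM in normal mice (log2 0.14 ± 0.07, edgeR adjusted p = 0.2758). Psmb6 read 82.13, 78.35 and 76.16 CPM in CT-26 mice against 75.95, 71.15 and 80.09 CPM in normal mice (log2 0.06 ± 0.06, edgeR adjusted p = 0.5621). Psmb7 read 106.2, 101.0 and 101.1 CPM in CT-26 mice against 93.78, 94.52 and 97.48 CPM in normal mice, without overlap but not called (log2 0.11 ± 0.05, edgeR adjusted p = 0.1716).

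The 3 immunoproteasome genes all had positive log2 fold changes in the hypothalamus, and 0 were called by edgeR or DESeq2, with 1 at an unadjusted edgeR p below 0.05. That threshold was passed by 11.7% of all genes as higher and by 13.4% as lower. Psmb10 read 25.55, 22.63 and 21.90 CPM in CT-26 mice against 20.13, 19.26 and 20.33 CPM in normal mice (log2 0.23 ± 0.08, edgeR adjusted p = 0.09288). Psmb9 read 0.9662, 1.333 and 0.9151 CPM in CT-26 mice against 0.9150, 0.7978 and 0.6535 CPM in normal mice (log2 0.42 ± 0.25, edgeR adjusted p = 0.3318). For these 2 genes every CT-26 library was above every normal one, as it was for 14.7% of all genes tested in hypothalamus. For Psmb9 the gap was 0.9151 against 0.9150 CPM, and its TPM values overlapped. Psmb8 read 3.006, 2.883 and 2.326 CPM in CT-26 mice against 2.440, 2.068 and 2.541 CPM in normal mice, which overlapped (log2 0.21 ± 0.17, edgeR adjusted p = 0.4824).

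Of 17 cap genes, 0 were called in the hypothalamus by edgeR or DESeq2, and 2 were higher and 1 lower at an unadjusted edgeR p below 0.05, against 11.7% and 13.4% of all genes. In log2 fold change the ATPases ran from Psmc1, at 157.1, 143.2 and 159.6 CPM in CT-26 mice against 132.8, 141.9 and 142.4 CPM in normal mice (log2 0.14 ± 0.06, edgeR adjusted p = 0.1413), to Psmc4, at 86.71, 77.20 and 80.68 CPM in CT-26 mice against 83.81, 88.64 and 87.86 CPM in normal mice (log2 -0.09 ± 0.05, edgeR adjusted p = 0.3365). Psmd4, the gene with the highest fold change in muscle, read 120.5, 109.5 and 107.2 CPM in CT-26 hypothalamus against 97.16, 111.7 and 111.2 CPM in normal hypothalamus (log2 0.07 ± 0.07, edgeR adjusted p = 0.5277). Its groups overlapped. Psmd6 had the highest log2 fold change of the non-ATPase subunits, at 60.19, 60.76 and 57.44 CPM in CT-26 mice against 55.17, 52.51 and 55.04 CPM in normal mice (log2 0.13 ± 0.05, edgeR adjusted p = 0.1344). Psmd11 had the lowest, at 76.83, 79.94 and 77.10 CPM in CT-26 mice against 83.68, 86.19 and 84.99 CPM in normal mice (log2 -0.12 ± 0.05, edgeR adjusted p = 0.1164). Both were without overlap, in opposite directions, and neither was called.

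Of the 6 activators or inhibitors, 0 were called in the hypothalamus by edgeR or DESeq2. At an unadjusted edgeR p below 0.05, 1 was higher, against 11.7% of all genes higher and 13.4% lower. Psme1 read 63.84, 54.10 and 54.31 CPM in CT-26 mice against 56.70, 55.14 and 54.35 CPM in normal mice, which overlapped (log2 0.05 ± 0.07, edgeR adjusted p = 0.6973). Psme2 read 24.62, 23.86 and 21.58 CPM in CT-26 mice against 21.69, 20.36 and 20.33 CPM in normal mice, where 1 CT-26 library was just below the highest normal one (log2 0.16 ± 0.07, edgeR adjusted p = 0.1993). Psme2b read 1.360, 1.045 and 0.8579 CPM in CT-26 mice against 0.7795, 0.7091 and 0.6898 CPM in normal mice, without overlap (log2 0.55 ± 0.25, edgeR adjusted p = 0.1993). Psme3 read 116.7, 105.1 and 109.6 CPM in CT-26 mice against 117.5, 112.7 and 109.0 CPM in normal mice (log2 -0.03 ± 0.05, edgeR adjusted p = 0.7462). Psme4 read 40.33, 38.53 and 38.89 CPM in CT-26 mice against 37.75, 41.60 and 37.94 CPM in normal mice (log2 0.00 ± 0.06, edgeR adjusted p = 0.9761). Both overlapped between the groups. Psmf1 read 46.38, 42.02 and 43.68 CPM in CT-26 mice against 39.52, 38.65 and 41.53 CPM in normal mice, just without overlap (log2 0.14 ± 0.06, edgeR adjusted p = 0.1701).

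The 7 chaperones had 0 calls in the hypothalamus by edgeR or DESeq2. They had 0 at an unadjusted edgeR p below 0.05, against 11.7% of all genes higher and 13.4% lower. Psmg1 read 11.67, 12.69 and 12.56 CPM in CT-26 hypothalamus against 12.23, 10.96 and 10.78 CPM in normal hypothalamus (log2 0.12 ± 0.09, edgeR adjusted p = 0.4235). Psmg2 read 13.13, 10.99 and 11.51 CPM in CT-26 hypothalamus against 12.34, 12.97 and 12.82 CPM in normal hypothalamus (log2 -0.10 ± 0.09, edgeR adjusted p = 0.5295). These partners in core assembly thus had values of opposite sign, each within 0.12 of 0 on the log2 scale. Psmg3 read 6.728, 5.766 and 5.929 CPM in CT-26 hypothalamus against 6.609, 5.910 and 6.571 CPM in normal hypothalamus (log2 -0.05 ± 0.11, edgeR adjusted p = 0.8192). Psmg4 read 4.187, 4.541 and 3.889 CPM in CT-26 hypothalamus against 3.525, 3.812 and 4.357 CPM in normal hypothalamus (log2 0.11 ± 0.14, edgeR adjusted p = 0.6861). The CT-26 and normal libraries were mixed in order for all 4.

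Of the cap chaperones, Psmd5 read 69.92, 70.32 and 68.97 CPM in CT-26 hypothalamus against 69.34, 72.78 and 73.52 CPM in normal hypothalamus (log2 -0.04 ± 0.05, edgeR adjusted p = 0.6078). Psmd9 read 19.72, 19.50 and 20.13 CPM in CT-26 hypothalamus against 20.03, 17.85 and 17.93 CPM in normal hypothalamus (log2 0.09 ± 0.07, edgeR adjusted p = 0.4817). Psmd10 read 13.17, 13.84 and 13.14 CPM in CT-26 hypothalamus against 13.52, 13.71 and 14.23 CPM in normal hypothalamus (log2 -0.05 ± 0.07, edgeR adjusted p = 0.7424). The groups overlapped in these 3 as well.

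The difference between the tissues was tested directly, as the muscle log2 fold change minus the hypothalamus log2 fold change in a fit of all 12 libraries. Of 48 members, and of the 47 without Psmc3ip, 27 had a higher value in muscle and 1 a lower one, where 16.4% of the 13572 genes tested in both tissues were called higher and 16.8% lower, 33.2% in all. With library totals the all-gene split was 3106 higher and 1385 lower, against 2224 and 2286 with TMM, and with limma on log2(TPM + 0.5) it was 3816 and 652. All 17 cap genes and 9 of 14 core genes were among the 27. The highest differences were those of Psmd4 (1.76 ± 0.16, edgeR adjusted p = 2.1e-05), Psmd8 (1.67 ± 0.16, edgeR adjusted p = 2.4e-05) and Psma7 (1.43 ± 0.11, edgeR adjusted p = 6.27e-06). The lowest were Psme1 (-1.01 ± 0.18, edgeR adjusted p = 0.001353), Psme2b (-0.90 ± 0.41, edgeR adjusted p = 0.1293) and Psmb9 (-0.60 ± 0.56, edgeR adjusted p = 0.4792). Psma1, Psma2, Psmb5 (0.11), Psmb6 (0.32), Psmb7 (0.02), the 7 chaperones and the 3 immunoproteasome genes were not called. Since both tissues came from the same mice, a fit with the mouse as a block was also made. It called 26 higher and 1 lower, and the gene it no longer called was Psmf1 (0.38 without the block). The Psmf1 call was also lost without a filter on low counts and without any 1 of hypothalamus CT-26 libraries 2 or 3, muscle normal libraries 1, 2 or 3, or hypothalamus normal library 3.

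Other genes of the pathway were read from lists chosen with earlier results of these data known. Counts in these lists stand beside the 19.6% higher and 18.3% lower among all genes tested in muscle, and the 3.94% higher and 4.83% lower in hypothalamus. In the gastrocnemius, 6 of 14 tested proteasome cofactors rose and 1 fell, with a median log2 fold change of 0.36. Adrm1, a second ubiquitin receptor of the cap, rose most, at 216.3, 221.6 and 207.7 CPM in CT-26 muscle against 82.60, 90.31 and 87.39 CPM in normal muscle (log2 1.31 ± 0.12, edgeR adjusted p = 0.000284). Txnl1 (0.88), the cap-bound deubiquitinases Uchl5 (0.78) and Usp14 (0.72), Zfand5 (0.66) and Akirin2 (0.63), which brings proteasomes into the nucleus, also rose. Ube3c, a ubiquitin ligase that works at the proteasome, fell by 0.47 on the log2 scale, a call lost with library totals (-0.27), with limma on log2(TPM + 0.5) (-0.13) and without normal library 2. Pomp, the maturation factor of the beta ring, read 44.64, 53.01 and 57.47 CPM in CT-26 muscle against 48.78, 49.22 and 52.63 CPM in normal muscle and was not called (log2 0.04 ± 0.13, edgeR adjusted p = 0.8168), and neither was Sem1, a small cap subunit (-0.21 ± 0.18).

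Of 15 tested genes for ubiquitin, its shuttles and the VCP unfoldase, 11 rose in CT-26 muscle and 0 fell, with a median log2 fold change of 0.65. Nploc4, a cofactor of VCP, read 328.0, 252.9 and 210.5 CPM in CT-26 muscle against 66.53, 74.40 and 61.73 CPM in normal muscle (log2 1.97 ± 0.18, edgeR adjusted p = 0.00033). Its 3 CT-26 values were spread but all far above the normal ones. The ubiquitin genes Ubb and Rps27a had log2 fold changes of 1.34 and 0.88. Faf1 (1.14), the shuttles Rad23b (0.55), Ubqln1 (0.66) and Ubqln2 (0.44), Nsfl1c (0.65) and Vcp itself (0.52) also rose. The call of Vcp was lost without normal library 1 or 3, that of Rad23b without normal library 1, and that of Ubqln2 without any library but CT-26 library 3.

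In the list on control by Nfe2l1, 4 of 11 tested genes rose and 1 fell in CT-26 muscle, against 19.6% and 18.3% of all genes. Nfe2l1 itself read 850.2, 466.8 and 645.6 CPM in CT-26 muscle against 408.9, 425.5 and 475.4 CPM in normal muscle. CT-26 library 2 lay within the normal range, and the log2 fold change of 0.58 ± 0.22 was not called (edgeR adjusted p = 0.0653). Mafk, a small Maf partner, rose by 1.05, Bach1, a repressor at the same elements, by 0.84, Ngly1, which removes sugars from the Nfe2l1 protein, by 0.83, and Ddi2, the protease that cuts it, by 0.80, all on the log2 scale. Fbxw7, a ubiquitin ligase subunit, fell by 0.86. With limma on log2(TPM + 0.5) the value of Fbxw7 was -0.46 and not called. The call of Ddi2 was lost without CT-26 library 1, normal library 1 or normal library 3, while Nfe2l1 was called with library totals, at 0.80, and with limma on log2(TPM + 0.5), at 0.89.

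Of 15 class I antigen presentation and interferon genes, 0 rose and 2 fell in CT-26 muscle by edgeR, a share of falls no higher than the 18.3% of all genes. Ifngr2, a chain of the interferon gamma receptor, was at -0.76 on the log2 scale, and with limma on log2(TPM + 0.5) it was at -0.39 and not called. In the hypothalamus this list had 2 genes higher, H2-K1 (0.36) and H2-D1 (0.36), and 1 lower, Irf9 (-0.58). Tap1, which shares its promoter region with Psmb9, read 6.978, 6.163 and 4.957 CPM in CT-26 hypothalamus against 4.575, 4.373 and 3.413 CPM in normal hypothalamus and was not called (log2 0.53 ± 0.16, edgeR adjusted p = 0.06817). The other lists had few calls in the hypothalamus: Zfand5 (0.20) of 14 cofactors, Ufd1 (0.22) and Rps27a (0.30) of 15 ubiquitin and VCP genes, and Mafg (-0.22) of 11 genes on Nfe2l1 control. Of these 7 hypothalamus calls, 0 were made with limma on log2(TPM + 0.5) and 0 were kept without each library in turn.

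Some values rest on reads that could belong to a neighbour. The strand setting of the counting was not given in the sources used here, and exons of 14 members overlap an exon of another annotated gene, by 0.3 to 21.2% of the member's exon bases. Among called members the largest such shares were 10.1% for Psmd13, which overlaps Sirt3, and 8.2% for Psmc3, which overlaps Slc39a13. Psme1 shared 0.6% with Emc9, and Psmd4, Psma7 and Psmd8 shared none. Named pseudogenes of Psmb5, Psmb6 and Psmb7 held at most 3.2 expected counts in any library.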

How the data were processed

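Per the labels' protocols, mRNA of 12 samples went into directional MGIEasy libraries and was sequenced in pairs of 100 bp (MGISEQ-2000). RSEM 1.3.3, STAR 2.7.9a, Trim Galore 0.6.6 and the build GRCm38 are named in the submitters' processing notes. The annotation release was not given in the sources used here. The deposited tables hold RSEM expected counts, which need not be whole, and the authors' TPM values.

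Of 55416 identifiers, 52083 were named from GENCODE M21, the source of the gene coordinates. Expected counts were rounded. Each tissue was fitted over all genes with edgeR 4.0.16 in R 4.3.3 (filterByExpr, TMM, glmQLFit and glmQLFTest, Benjamini-Hochberg over all genes tested), and the tissue difference with all 12 libraries. Standard errors come from the test statistic. Alternatives were median-of-ratios and library-total scaling, DESeq2 1.42.0, no filter on low counts, limma 3.58.1 on log2(TPM + 0.5), a replicate block and leaving out each library. The fits were tested on simulated data. Ratios were tested by exact permutation.

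The members, gene lists and promoter motifs were chosen with earlier results of these data known. Library values and test results are given for the highest and lowest gene of each class in each tissue and for a fixed set of catalytic, activator and chaperone genes; listed non-members are named where called, and Nfe2l1, Pomp, Sem1 and Tap1 were added after their values were seen. Some called genes of these lists are counted but not reported here by name. All replicate pairs differed by more than sampling noise, with chi-square values per gene of 5.863 to 160.11. CT-26 and normal mice of the same number are different animals. Gastrocnemius and hypothalamus of one group and number are labelled as the same mouse, and their deviations from group means correlated at -0.022 to 0.086.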

Additional observations from a re-analysis of the deposited data

Results flagged for a closer look

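For 28 proteasome genes the CT-26 effect differed between tissues in the interaction test (edgeR, adjusted p below 0.05). Values are the log2 fold change in gastrocnemius minus that in hypothalamus, with 3 mice per group. Among cap subunits other than the ATPases the difference was 1.76 for Psmd4, 1.67 for Psmd8, 1.37 for Psmd11, 1.35 for Psmd2, 1.26 for Psmd3, 1.08 for Psmd7, 0.92 for Psmd1, 0.91 for Psmd12, 0.87 for Psmd13, 0.71 for Psmd6 and 0.58 for Psmd14. Among the ATPases it was 1.15 for Psmc2, 1.14 for Psmc4, 0.90 for Psmc3, 0.70 for Psmc1, 0.65 for Psmc5 and 0.51 for Psmc6. In the alpha ring it was 1.43 for Psma7, 0.96 for Psma4, 0.76 for Psma6, 0.61 for Psma3 and 0.57 for Psma5, and in the beta ring 0.85 for Psmb3, 0.82 for Psmb2, 0.65 for Psmb4 and 0.62 for Psmb1. Psmf1, at 0.38, was not called with the mouse block, without a filter on low counts, or in 6 of the 12 fits that left out 1 library. Psme1, at -1.01, was the 1 gene with a lower effect in muscle.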

How the results depend on the processing

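In the gastrocnemius 30 members were called, and the alternatives gave 28 to 36: 32 with library totals, which added Psmb5 and Psme3, and 36 with limma on log2(TPM + 0.5), which added Psma1, Psmb5, Psmb7, Psmc3ip, Psme3 and Psmg4. The 28 calls other than Psma2 and Psmb6 were kept in all 12 alternatives. In the hypothalamus the 1 call, Psma7, was made with edgeR under each scaling, with DESeq2 and without a filter, and the count was 0 with limma, 0 with the replicate block and 0 to 0 when any 1 library was left out. The tissue difference had 28 calls, 27 to 35 under the alternatives, and the calls other than Psmf1 were kept in all of them. With the replicate block the gastrocnemius count stayed at 30 and the tissue difference had 27. Same-numbered CT-26 and normal libraries correlated at -0.057, 0.182 and 0.259 in gastrocnemius and -0.103, -0.025 and 0 in hypothalamus. The immunoproteasome-to-constitutive log2 difference ran from -0.58 to -0.30 in gastrocnemius and from 0.11 to 0.17 in hypothalamus, and the exact sign-flip permutation test with the block cannot go below p = 0.25. The alternatives for the other ratios and for listed non-members were chosen after seeing the data. The cap-to-core log2 difference in gastrocnemius ran from 0.37 to 0.51 when a library was left out and was 0.47 in expected counts, and the other muscle ratios stayed below 0. Of 25 listed non-members called in gastrocnemius, 24 were called with library totals, 21 with limma on log2(TPM + 0.5), and 20 without each library in turn. Over all genes, the number called higher was 1768 in gastrocnemius without normal library 1, against 2801 with all libraries, and in hypothalamus, against 708, it was 314 without CT-26 library 1, 439 without CT-26 library 3 and 283 without normal library 2. The number called lower in hypothalamus, against 867, was 397, 498 and 362 without CT-26 library 1, 2 or 3, and 293 without normal library 2. With 3 mice per group, low-count genes such as Psmb9 and Psme2b had standard errors of 0.25 to 0.56.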
